A study of Mus musculus with 12 samples.

Results

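The Ugt, Gst and Sult genes encode the main conjugation enzymes of the liver, and their transcripts were followed here in 12 mouse liver libraries. They were taken as all genes whose GENCODE vM1 symbol starts with Ugt1, Ugt2, Ugt3 or Sult, or with Gst and a class letter and number, and whose counts summed above 0. This gave 25 of the 51609 gene rows, of which 3 are UDP-glucuronosyltransferases (Ugt2a3, Ugt2b34 and Ugt2b36), 12 are glutathione S-transferases and 10 are sulfotransferases. The annotation names 60 genes of this kind. The rows of Gstt4, Sult1c1 and Ugt2a1 held 0 in all libraries. The other 32 genes had no row under the identifiers of this annotation and were not analysed here. They include all of Ugt1, Ugt3 and Gstp, as well as Gsta1, Gstm1, Gstm2, Gstm3 and Gstm6. The least counted member was Sult2b1 with 3 counts over all libraries, just inside the rule.

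Conjugation is the second phase of drug, steroid and bile acid metabolism. UDP-glucuronosyltransferases of the endoplasmic reticulum attach glucuronic acid, cytosolic sulfotransferases attach sulfate from the donor PAPS, and glutathione S-transferases couple glutathione to electrophiles, so that the products become water-soluble and can be exported to bile or urine. In the liver these enzymes are made mostly by hepatocytes. Some of them, Sult3a1 among them, are known to be expressed mainly in female mouse liver.

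The study asked how the liver transcriptome responds to dextran sodium sulfate (DSS), which causes colitis, and what Rela and Stat3 contribute in hepatocytes. There were 4 groups of 3 C57BL/6 mice: wild-type mice on water, wild-type mice given 2% DSS in drinking water for 6 days, and mice labelled RelaΔhepStat3Δhep (Rela and Stat3 knockout) on water or on the same DSS. By the study's methods the mice were several weeks old and of either sex, the deletion is driven by Cre under the albumin promoter, which acts in hepatocytes and leaves other liver cells with both genes, and the mice called wild-type are Cre-negative littermates that carry floxed alleles. The labels do not give the sex, litter or sequencing batch of a mouse.

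The libraries held 65879529 to 82850098 estimated counts. The genotype could not be read from the targeted genes at gene level: Rela was at 39.5 to 62.3 CPM (counts scaled by TMM to a common library size) in the 6 livers labelled RelaΔhepStat3Δhep and at 39.8 to 55.5 in the 6 wild-type livers, and Stat3 at 43.0 to 74.8 and at 45.7 to 329.5. The mean of Stat3 was lower under the label, at 47.4 against 90.3 CPM untreated and 58.6 against 233 CPM after DSS, with overlap in both cases. After DSS its log2 fold change between the genotypes was -1.99 (SE 0.56, edgeR adjusted p = 0.175), and DESeq2 called 1 of the 2 targeted genes there. The deleted exons cannot be seen in gene totals, so the genotype is given as labelled. The hepatocyte markers (8 of 9 with a row) summed to 102318 to 187660 CPM. Among the wild-type livers, replicate 2 of the DSS-treated group stood apart. It had the smallest normalization factor, 0.758 against 0.953 to 1.13 in the others, and it was the lowest library for 16 of 22 tested members, against 13.0% of all tested genes. Its Kupffer cell and macrophage markers summed to 849 CPM and its neutrophil and monocyte markers to 98.7 CPM, the highest of the 6 wild-type livers. Replicate 3 of the untreated wild-type group stood apart by sex-linked transcripts. Xist, made from the inactive X chromosome of females, was at 1143 CPM there and 0.566 and 0.191 CPM in its group, and the 4 Y-linked genes summed to 30.1 CPM against 241 and 188. All 3 DSS-treated livers labelled RelaΔhepStat3Δhep had Xist at 903 to 1283 CPM and Y-linked sums of at most 0.12 CPM, whereas the untreated livers of that label had 0.235 to 29.0 and 175 to 215 CPM. The DSS-treated wild-type livers had Xist at 0.191 to 11.9 CPM. Sex therefore cannot be told apart from DSS within the mice labelled RelaΔhepStat3Δhep, nor from genotype among the DSS-treated mice.

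Levels were compared between genes per kb of exon. Averaged over the 12 libraries, Sult3a1 (747 CPM per kb) and Gsta3 (723) were highest. Below them came Ugt2b36 (309), Gstz1 (293), Sult1a1 (263), Ugt2a3 (170), Ugt2b34 (151) and Gstt1 (115). The average of Sult3a1 comes from 4 libraries, as described further on. These averages pool groups that differ, so the order is not that of each group. After DSS, Sult1a1 averaged 270 CPM in wild-type livers and 601 CPM in livers labelled RelaΔhepStat3Δhep. At the other end, Gsto2 and Sult1e1 averaged 0.072 and 0.26 CPM per kb. Sult2b1, Sult4a1 (27 counts in all) and Sult6b1 (58) did not pass the filter on low counts and were not tested. The remaining 22 were tested.

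**Figure D1:**
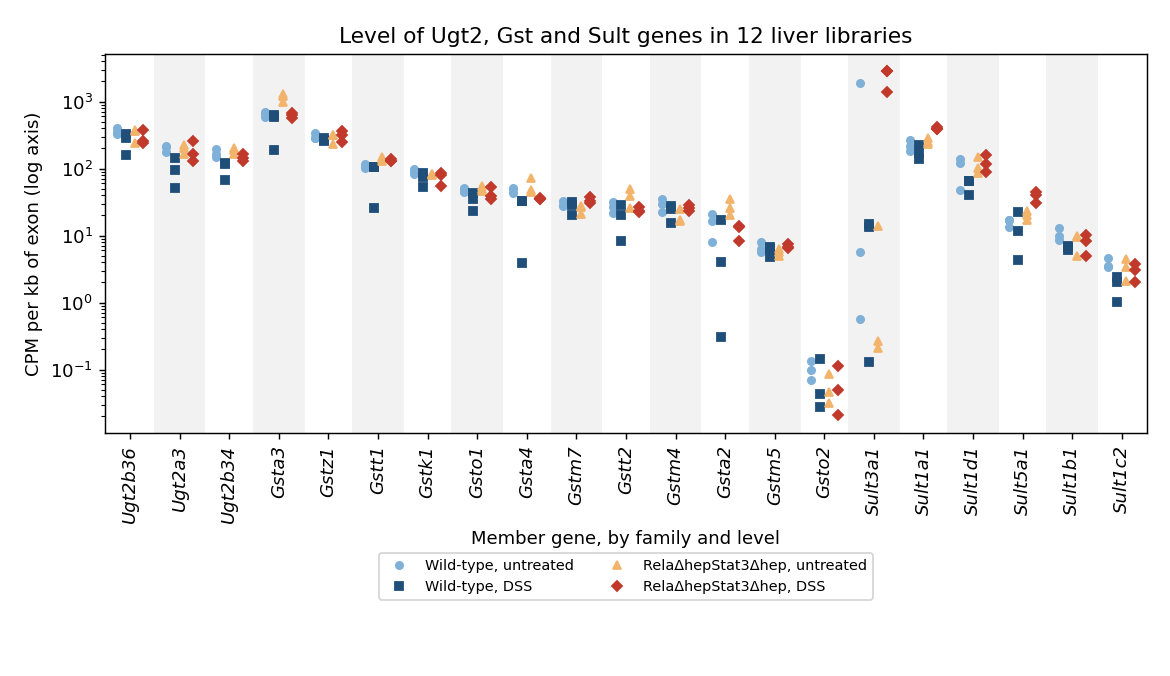
Level of each member that was above 0 in all 12 libraries, in CPM per kb of exon on a log axis, by family (x axis). Each symbol is 1 liver, with 3 livers in each of the 4 groups. Sult3a1 is spread most widely between livers of the same group, and Gsto2 lies near 0.1.

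The promoters of the members on which the comparisons turn are shown to place known motifs of Stat3, of the antioxidant regulator Nfe2l2 and of Rela (the kappaB consensus) beside the values. They are the 250 bases before the start in the RefSeq table (GRCm38.p6), which holds 22 of the 25 members. Capitals mark a motif found on either strand, TTCNNNGAA for STAT factors, TGACNNNGC for the antioxidant response element or the kappaB consensus, and no member promoter held more than 1 of them.
Sult1a1 promoter, chr7:126676419-126676668, minus strand: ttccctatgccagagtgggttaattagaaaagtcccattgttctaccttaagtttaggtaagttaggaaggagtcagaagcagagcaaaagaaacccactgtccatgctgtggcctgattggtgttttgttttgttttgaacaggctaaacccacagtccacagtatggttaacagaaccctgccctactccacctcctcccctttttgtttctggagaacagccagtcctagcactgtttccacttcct
Sult3a1 promoter, chr10:33857472-33857721, plus strand: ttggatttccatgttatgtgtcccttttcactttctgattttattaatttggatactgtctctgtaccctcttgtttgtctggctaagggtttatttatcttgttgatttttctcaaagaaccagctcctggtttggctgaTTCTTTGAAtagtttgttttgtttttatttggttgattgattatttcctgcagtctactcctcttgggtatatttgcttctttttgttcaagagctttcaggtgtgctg
Gsta3 promoter, chr1:21240335-21240584, plus strand: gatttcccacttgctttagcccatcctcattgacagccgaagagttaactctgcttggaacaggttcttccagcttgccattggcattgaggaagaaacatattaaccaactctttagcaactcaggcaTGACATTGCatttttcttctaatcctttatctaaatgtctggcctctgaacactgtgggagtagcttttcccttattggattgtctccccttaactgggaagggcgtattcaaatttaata
Sult1a1, the 1 member called by edgeR, held none of them. The STAT motif occurred in 1 of 28 member promoters, that of Sult3a1, and in 7.02% of all 32851 promoters of the table. The antioxidant motif occurred in 3 of 28, those of Gsta3, Gstm5 and Gstm7, and in 10.2% of all. The kappaB consensus occurred in 2 of 28, those of Sult2b1 and Ugt2b36, and in 7.25% of all. A match is a description of the letters in this window only.

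Among the sulfotransferases, Sult1a1 was the 1 member that edgeR called between genotypes. It encodes the phenol sulfotransferase that sulfates simple phenols and many phenolic drugs, and lies on chromosome 7 at 133816379 to 133819946 (mm9, minus strand). In untreated wild-type livers it was at 322, 275 and 397 CPM, and after DSS at 340, 209 and 261. In livers labelled RelaΔhepStat3Δhep it was at 355, 375 and 424 CPM untreated and at 585, 593 and 624 after DSS. The 3 DSS-treated livers of that label were the highest of all 12 libraries and overlapped no other group. After DSS, Sult1a1 was thus higher in livers labelled RelaΔhepStat3Δhep (601 ± 20.9 CPM, SD, n = 3) than in wild-type livers (270 ± 65.9), with a log2 fold change of 1.15 (SE 0.20, edgeR adjusted p = 0.0392). In that comparison 1 of the 22 tested members, Sult1a1, passed the adjusted threshold of 0.05, as did 0.334% of all genes. The DESeq2 Wald test gave an adjusted p of 4.27e-06 for it and called 2 members, the other being Sult5a1 (1.58, DESeq2 adjusted p = 0.00447), against 3.91% of all genes. Fitted with only the groups compared, the edgeR adjusted p was 0.158. With sex, read from Xist, as a covariate the log2 fold change was 0.74 and the edgeR adjusted p 0.762; in that fit only replicate 3 of the untreated wild-type group separates sex from the groups. The call did not hold either when any 1 of 9 libraries was left out (edgeR adjusted p 0.0538 to 0.128): replicates 2 and 3 of the DSS-treated wild-type group, replicate 1 of the untreated wild-type group and each of the 6 livers labelled RelaΔhepStat3Δhep. Without replicate 1 of the DSS-treated wild-type group the adjusted p was 0.00654, and without both libraries that stand apart it was 0.0452 at a log2 fold change of 1.00.

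Within the genotypes, the DSS response of Sult1a1 was -0.30 (SE 0.19, edgeR adjusted p = 0.523) in wild-type livers and 0.64 (SE 0.19, edgeR adjusted p = 0.0641) in livers labelled RelaΔhepStat3Δhep, on the log2 scale. The wild-type value was 0.013 without both libraries that stand apart. The difference between these responses was 0.94 (SE 0.27, edgeR adjusted p = 0.146), and between the untreated genotypes Sult1a1 differed by 0.22 (edgeR adjusted p = 0.716). Over all alternatives the response under the label ran from 0.23 to 0.72, and the difference between the responses from 0.37 to 1.14. Leaving out 1 library gave 0.59 to 0.72 and 0.77 to 1.14. With sex as a covariate edgeR called 0 members in either comparison (0.0227% of all genes in each). Exons of Sult1a1 overlap those of Ccdc101 on the opposite strand. Whether the counting used strand is not given in the sources used here, and Ccdc101 held 10227 counts in all against 346108 of Sult1a1.

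Sult3a1, an amine sulfotransferase on chromosome 10 at 33583741 to 33599322 (mm9, plus strand), varied more between livers than any other member above 0 in all libraries. It was at 6.10, 0.615 and 2060 CPM in untreated wild-type livers and at 14.4, 0.143 and 16.2 after DSS. In livers labelled RelaΔhepStat3Δhep it was at 0.226, 0.290 and 15.1 CPM untreated and at 3064, 1508 and 3072 after DSS. The 4 libraries above 1000 CPM are the 4 libraries with Xist above 900 CPM, 1 of them untreated wild-type. The 3 libraries with Xist at 11.1 to 29.0 CPM had Sult3a1 at 14.4 to 16.2 CPM, and the 5 with Xist at 0.191 to 0.566 CPM had it at 0.143 to 6.10. Sult3a1 therefore ranked the libraries nearly as Xist did, across all groups. Its promoter is the member promoter with the STAT motif printed above.

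**Figure D2:**
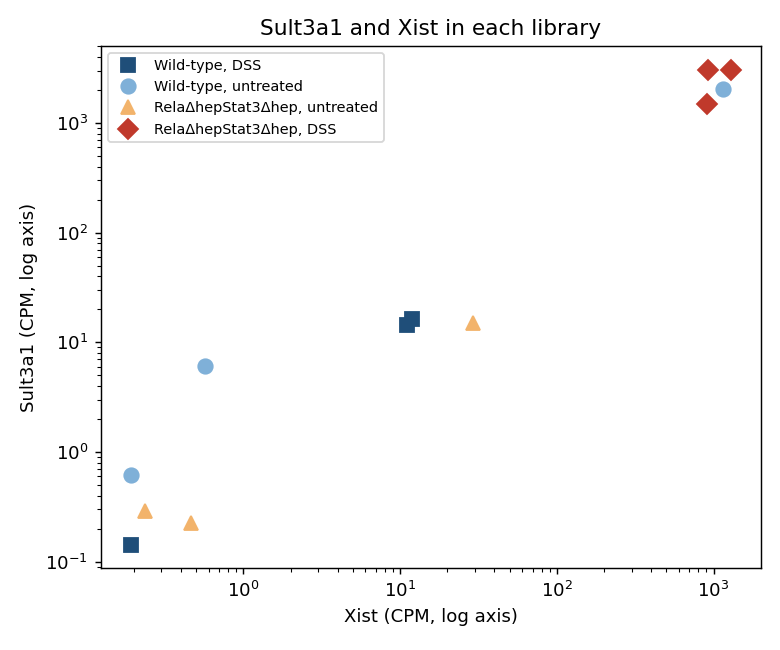
Sult3a1 (y axis) against Xist (x axis), both in CPM on log axes, with 1 point for each of the 12 livers and symbols by group. The 4 livers with Xist at 903 to 1283 CPM had Sult3a1 at 1508 to 3072 CPM, and the other 8 stayed at 16.2 CPM or lower.

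The fitted DSS response of Sult3a1 was 8.93 (SE 3.41, edgeR adjusted p = 0.154) in livers labelled RelaΔhepStat3Δhep and -6.07 (SE 3.01, edgeR adjusted p = 0.404) in wild-type livers, on the log2 scale. Without replicate 3 of the untreated wild-type group the wild-type response was 1.61, and with sex as a covariate the response in livers labelled RelaΔhepStat3Δhep was -0.33. Without both libraries that stand apart, the response under that label was 8.89 with an edgeR adjusted p of 0.0477. No direction is read from Sult3a1 for either treatment or genotype. Its transcript shares 1.87% of its 75-base windows with other genes, mostly Gm4794.

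The other sulfotransferases were lower in level. Sult5a1 was at 30.4, 29.8 and 23.8 CPM in untreated wild-type livers and at 39.5, 7.64 and 20.5 after DSS. Livers labelled RelaΔhepStat3Δhep had 35.3, 29.8 and 40.6 CPM untreated and 53.9, 71.1 and 77.8 after DSS. The DSS-treated livers of that label overlapped no other group, as with Sult1a1, but the log2 fold changes missed the adjusted threshold against DSS-treated wild-type livers (1.58, SE 0.44, edgeR adjusted p = 0.161) and against untreated livers of the label (0.94, SE 0.43, edgeR adjusted p = 0.215). Leaving out both libraries that stand apart gave 0.92 and an edgeR adjusted p of 0.0327 for the latter, and leaving out replicate 1 of the DSS-treated wild-type group gave 2.26 and an edgeR adjusted p of 0.0119 for the former. With sex as a covariate neither passed (1.92, edgeR adjusted p = 0.760, for the former and 1.27, edgeR adjusted p = 0.618, for the latter). Sult1d1, which sulfates catecholamines and other amines in mice, was at 295, 116 and 346 CPM in untreated and at 158, 161 and 99.9 in DSS-treated wild-type livers. It was at 248, 362 and 211 CPM in untreated livers labelled RelaΔhepStat3Δhep and at 393, 215 and 284 after DSS. Its groups differed without overlap only between the DSS-treated genotypes (log2 fold change 1.09, SE 0.37, edgeR adjusted p = 0.228), and with sex as a covariate that value was 0.34 (edgeR adjusted p = 0.965). Sult1e1, the estrogen sulfotransferase, was close to absent, at 0 to 1.28 CPM, and gives no usable comparison at 282 counts in all.

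**Figure D3:**
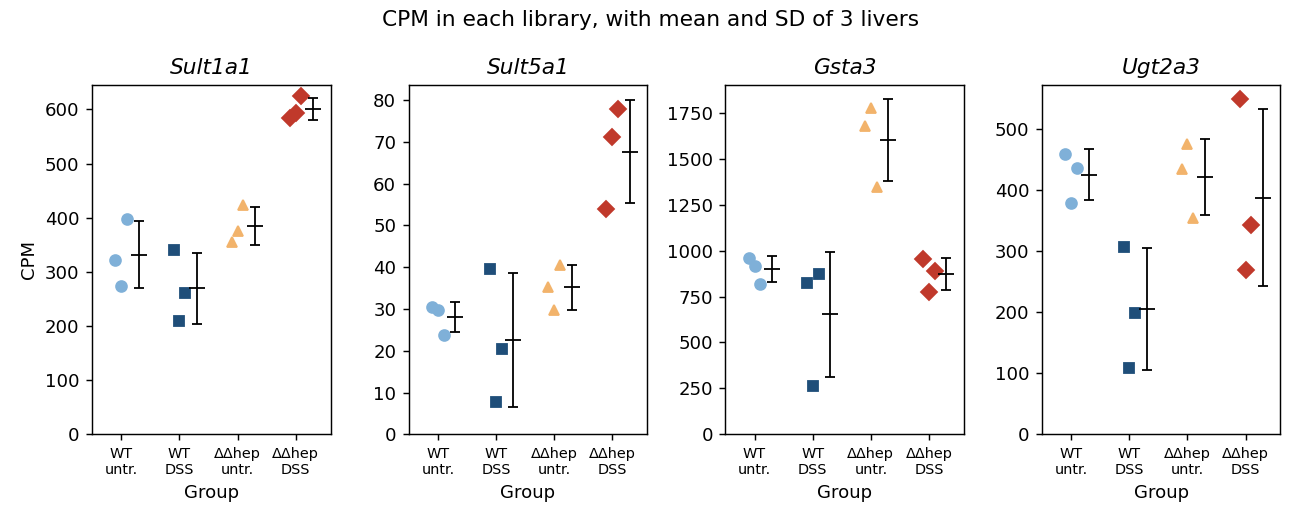
CPM of Sult1a1, Sult5a1, Gsta3 and Ugt2a3 (y axes, from 0) by group (x axis; WT, wild-type; ΔΔhep, labelled RelaΔhepStat3Δhep; untr., untreated). Coloured symbols are single livers, and the black bars give the mean and SD of 3 livers. Sult1a1 and Sult5a1 were highest in all 3 DSS-treated ΔΔhep livers, Gsta3 in the untreated ΔΔhep livers, and Ugt2a3 was lower in all 3 DSS-treated wild-type livers than in the untreated ones.

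Among the 12 glutathione S-transferase members, the most abundant was of the alpha class. Classes and genes without a row are outside this ranking. Gsta3, known for its conjugation of aflatoxin epoxide in mice, was at 962, 916 and 819 CPM in untreated wild-type livers and at 1678, 1773 and 1348 in untreated livers labelled RelaΔhepStat3Δhep. After DSS it was at 822, 261 and 874 CPM in wild-type and at 953, 777 and 887 under that label. All 3 untreated livers labelled RelaΔhepStat3Δhep were above every other library. The difference between the untreated genotypes was 0.83 on the log2 scale (SE 0.34, edgeR adjusted p = 0.365), and none of the 22 tested members passed the threshold there, where 0.0623% of all genes did and the DESeq2 Wald test also called none (2.31% of all genes). There, 2 members had an unadjusted p under 0.05 (11.7% of all genes), and the untreated genotypes did not overlap for Gsta3, Gstt1 and Gstm7, or 3 of 22 members (20.2% of all genes). The 8 hepatocyte markers were all positive there (median 0.24), and 5 of 6 stellate, 6 of 6 endothelial and 6 of 7 T and B cell markers were negative (medians -0.58, -0.13 and -0.42). The 4 tested neutrophil and monocyte markers were also all negative (median -1.33), as were 6 of 7 Kupffer cell and macrophage markers (median -0.16). The 7 tested male-biased liver genes were all positive (median 1.16) and the 4 female-biased ones all negative (median -2.50). None of these was called by edgeR, and their part was not tested. With DSS, Gsta3 in livers labelled RelaΔhepStat3Δhep had a log2 fold change of -0.88 (SE 0.34, edgeR adjusted p = 0.135). Without both libraries that stand apart this was -0.89 with an edgeR adjusted p of 0.0066, and without replicate 2 of the DSS-treated wild-type group alone -0.89 with 0.00465. It also passed the threshold by the DESeq2 Wald test (-0.90, adjusted p = 0.0438), by limma-voom (-0.92, adjusted p = 0.0446) and by edgeR fitted with only the groups compared (-0.89, adjusted p = 0.0133). It did not pass with sex as a covariate (-0.68, SE 0.63, edgeR adjusted p = 0.738), nor when any of the other 11 libraries was left out (edgeR adjusted p 0.125 to 0.302), and the 3 treated livers are those with high Xist.

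Gsta4, which acts on hydroxynonenal from lipid peroxidation, was lower in level. It was at 41.7, 47.6 and 48.3 CPM in untreated and at 31.3, 3.69 and 31.5 in DSS-treated wild-type livers, and at 45.8, 42.5 and 69.9 against 33.5, 34.9 and 33.4 in livers labelled RelaΔhepStat3Δhep. DSS-treated livers were below the untreated ones of their genotype in all 6 cases, with log2 fold changes of -1.05 (SE 0.58, edgeR adjusted p = 0.453) in wild-type and -0.64 (SE 0.58, edgeR adjusted p = 0.549) under the label. Without replicate 2 of the DSS-treated wild-type group these were -0.55 and -0.65, the latter with an edgeR adjusted p of 0.0335, and without replicate 3 of the untreated livers of the label the latter was -0.38. Gsta2 was at 9.33 to 24.6 CPM in untreated wild-type livers and at 20.1, 0.366 and 4.76 after DSS. It was at 23.9 to 41.9 CPM in untreated livers labelled RelaΔhepStat3Δhep and at 9.81 to 16.2 after DSS (log2 fold change -1.21, SE 0.94, edgeR adjusted p = 0.482). Because 47.6% of the 75-base windows of Gsta2 also occur in other genes, mostly Gm10639, its counts are uncertain.

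The 3 mu class members, Gstm4, Gstm5 and Gstm7, stayed between 6.18 and 59.7 CPM. Gstm1, Gstm2, Gstm3 and Gstm6 had no row, so this range is not that of the whole class. In livers labelled RelaΔhepStat3Δhep, Gstm7 was at 42.1, 44.0 and 33.4 CPM untreated and at 52.5, 48.7 and 59.7 after DSS, without overlap (log2 fold change 0.43, SE 0.17, edgeR adjusted p = 0.147). Gstm5 also did not overlap there, at 6.25 to 8.15 CPM untreated and 8.40 to 9.47 after DSS, but it overlaps the exons of a noncoding gene, 4933431E20Rik, on the opposite strand. Gstm4 was at 38.5, 59.5 and 51.0 CPM in untreated wild-type livers and at 46.4, 26.3 and 43.2 after DSS. It was at 42.0, 28.9 and 28.3 CPM in untreated livers labelled RelaΔhepStat3Δhep and at 40.3, 48.3 and 44.1 after DSS, so the treated and untreated livers overlapped in both genotypes.

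Of the theta class, Gstt1, which conjugates small halogenated compounds, was at 165, 155 and 182 CPM in untreated and at 161, 39.8 and 162 in DSS-treated wild-type livers. It was at 199, 229 and 212 CPM in untreated and at 196, 198 and 214 in DSS-treated livers labelled RelaΔhepStat3Δhep. All 6 livers of that label were above all 6 wild-type livers, and the genotype difference after DSS was 0.74 on the log2 scale (SE 0.37, edgeR adjusted p = 0.396). Without both libraries that stand apart it was 0.32. Gstt2 ran from 11.5 to 66.8 CPM, and its log2 fold change with DSS under the label was -0.64 (SE 0.36, edgeR adjusted p = 0.305), or -0.42 without replicate 3 of the untreated livers of the label. The omega class member Gsto1, known for its reduction of dehydroascorbate, was at 88.6 to 102 CPM in untreated and at 84.8, 45.1 and 69.5 in DSS-treated wild-type livers (log2 fold change -0.52, SE 0.21, edgeR adjusted p = 0.266), and the value was -0.31 without replicate 2 of the treated group. Gstz1 of tyrosine breakdown ranged over only 384 to 610 CPM in all 12 libraries, with its exons overlapping those of Pomt2 on the opposite strand, and Gstk1 over 48.5 to 93.0.

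The UDP-glucuronosyltransferases were abundant, and all 3 members lie within 1 stretch of chromosome 5 (87318792 to 87766220, mm9, minus strand). Ugt2a3 was at 460, 379 and 437 CPM in untreated wild-type livers and at 307, 108 and 199 after DSS. Livers labelled RelaΔhepStat3Δhep had 435, 476 and 354 CPM untreated and 550, 270 and 343 after DSS. The DSS-treated wild-type livers were thus below all the untreated wild-type ones, whereas the treated and untreated livers of the other genotype overlapped. The wild-type log2 fold change was -1.05 (SE 0.33, edgeR adjusted p = 0.161), and that under the label was -0.12 (SE 0.33, edgeR adjusted p = 0.863). The difference between these responses was 0.93 (SE 0.47, edgeR adjusted p = 0.339), so they are not shown to differ.

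Ugt2b34 was at 700, 634 and 857 CPM in wild-type livers on water and at 505, 293 and 530 in those on DSS, again without overlap (log2 fold change -0.72, SE 0.22, edgeR adjusted p = 0.154). Under the label it was at 812, 863 and 704 CPM untreated and at 710, 625 and 558 after DSS. Ugt2b36 was at 730, 667 and 839 CPM in wild-type livers on water and at 669, 325 and 585 in those on DSS, with an overlap (log2 fold change -0.50, SE 0.27, edgeR adjusted p = 0.427). Without replicate 2 of the DSS-treated wild-type group the log2 fold change of Ugt2b36 was -0.25, and without both libraries that stand apart those of Ugt2b36 and Ugt2b34 were -0.15 and -0.36. The summed level of the 3 genes was 1901 ± 227 CPM (SD, n = 3) in wild-type livers on water and 1174 ± 397 in those on DSS, and 1887 ± 289 and 1616 ± 353 under the label. Ugt2a3 and Ugt2b34 share 1.81% and 0.873% of their 75-base windows, mostly with each other.

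Across the families, DSS in wild-type livers gave a negative log2 fold change for all 22 tested members, against 47.8% of all tested genes. The median was -0.49 for the members and 0.018 for all genes. None of the 22 passed the adjusted threshold by edgeR (0.685% of all genes did), while 6 had an unadjusted p under 0.05 against 14.5% of all genes. The DESeq2 Wald test called 3 members and 5.61% of all genes. The members were Ugt2b34 (-0.73, DESeq2 adjusted p = 0.0276), Ugt2a3 (-1.05, DESeq2 adjusted p = 0.0291) and Sult1c2 (-1.08, DESeq2 adjusted p = 0.0446). The DSS-treated wild-type livers were below all untreated ones for 7 members (Ugt2a3, Ugt2b34, Gsta4, Gsto1, Gstz1, Sult1b1 and Sult1c2), or 31.8%, against 9.21% of all genes. Sult1b1 was at 23.7 to 36.3 CPM untreated and 17.0 to 19.6 after DSS, and Sult1c2 at 6.34 to 8.52 and 1.88 to 4.43.

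The 3 DSS-treated wild-type livers did not contribute alike. Relative to the untreated wild-type mean, 16, 20 and 22 of the 22 members were lower in replicates 1, 2 and 3, and the median log2 ratios were -0.19, -1.14 and -0.41. Replicate 2 is the library with the small normalization factor and high macrophage and neutrophil markers. Without it, 20 of 22 members remained negative, with a median of -0.26. Without it and the untreated replicate 3, 17 of 22 were negative and the median was -0.21. With sex as a covariate, 21 of 22 were negative and the median was -0.47. In a bulk sample fewer hepatocytes and less of a transcript in each hepatocyte cannot be told apart. Other markers moved in this comparison too. The 7 T and B cell markers all had negative log2 fold changes (median -1.18, 4 with an unadjusted p under 0.05), and their summed level was 5.25 to 7.91 CPM untreated and 2.88 to 3.15 after DSS. The 6 endothelial markers were also all negative (median -0.23), as were 5 of 6 stellate cell markers (median -0.43, 2 with an unadjusted p under 0.05) and 6 of 8 hepatocyte markers (median -0.15), while 6 of 7 Kupffer cell and macrophage markers (median 0.62) and the 4 tested neutrophil and monocyte markers (median 3.13) were positive. The 4 tested female-biased liver genes were all negative (median -4.51, 3 with an unadjusted p under 0.05, 2 called by DESeq2). Of the 7 tested male-biased ones 5 were positive (median 0.78). None of these markers and sex-biased genes passed the adjusted threshold by edgeR, and their part in the members' values was not tested.

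**Figure D4:**
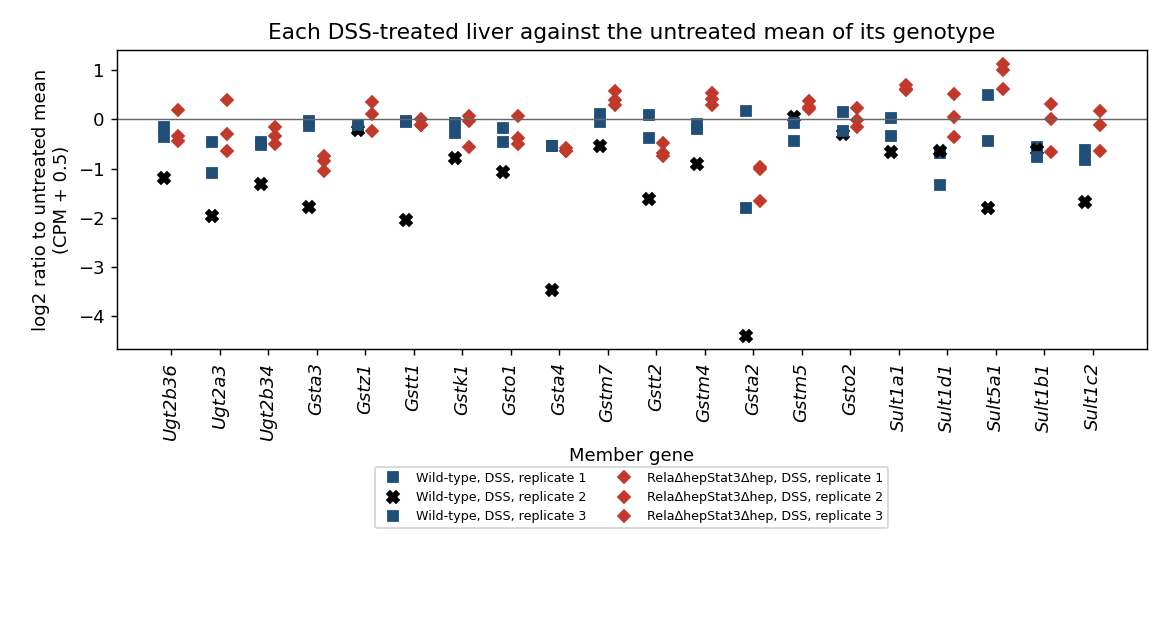
log2 ratio of CPM + 0.5 in each DSS-treated liver to the mean of the 3 untreated livers of its genotype (y axis), for the tested members above 0 in all libraries other than Sult3a1 (x axis). Black crosses mark replicate 2 of the DSS-treated wild-type group, which had a median ratio of -1.14 over the 22 tested members, against -0.19 and -0.41 in the other wild-type livers.

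With DSS, livers labelled RelaΔhepStat3Δhep gave 12 negative and 10 positive log2 fold changes, with a median of -0.067, and 50.6% of all genes were negative. None of the 22 members passed the adjusted threshold by edgeR, in a comparison where 7.02% of all genes did, and 4 had an unadjusted p under 0.05 against 24.1%. The DESeq2 Wald test called 2 members, Sult1a1 (higher) and Gsta3 (lower), and 13.9% of all genes. Treated and untreated livers did not overlap for 8 members, or 36.4%, against 31.8% of all genes. The treated livers were lower for 3, the alpha class genes Gsta2, Gsta3 and Gsta4 (14.0% of all genes were lower), and higher for 5, which were Gstm5, Gstm7, Sult1a1, Sult3a1 and Sult5a1 (17.8% of all genes). Without both libraries that stand apart edgeR called 5 members, against 9.56% of all genes in that fit. They were Sult1a1, Sult3a1 and Sult5a1 (higher) and Gsta3 and Gsta4 (lower). Beside these values, 6 of the 7 Kupffer cell and macrophage markers with a row (of 9) were called higher, and their sum went from 286 to 317 CPM untreated to 579 to 936 CPM after DSS, with none at 0. The 4 tested neutrophil and monocyte markers were all positive (median 3.77) with an unadjusted p under 0.05, none of them called, and the list's sum went from 6.44 to 8.12 CPM to 23.2 to 61.1 CPM. Of the 7 T and B cell markers 6 were positive (median 0.83), as were 4 of 6 stellate cell markers (median 0.64), of which Des was called (1.98, edgeR adjusted p = 0.0179). Of the 8 hepatocyte markers 6 were negative (median -0.29), and Hnf4a was called lower (-0.70, edgeR adjusted p = 0.0325). With sex as a covariate edgeR called 0 of all genes higher in this comparison, so the calls of these macrophage markers and of Des did not hold. Hnf4a did not pass there either (edgeR adjusted p = 0.612). The part of these cells was not tested.

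**Figure D5:**
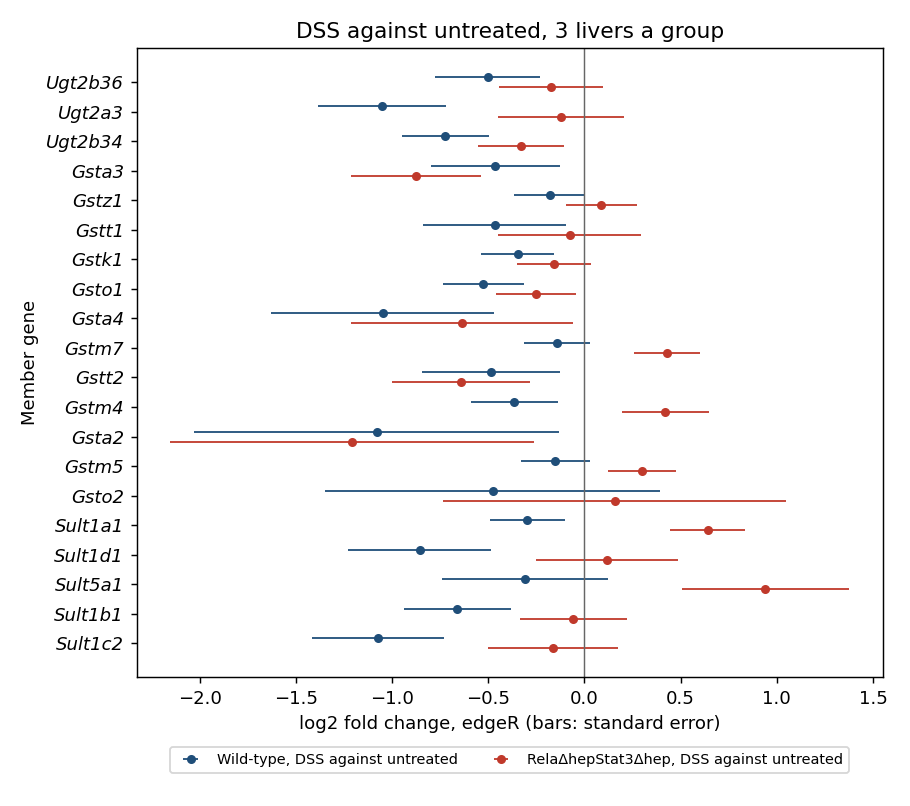
log2 fold change of DSS-treated against untreated livers (x axis, edgeR, bars give the standard error) for the tested members above 0 in all libraries other than Sult3a1 (y axis), in wild-type livers (blue) and in livers labelled RelaΔhepStat3Δhep (red), 3 livers a group. All wild-type values lie below 0, and those under the label lie on both sides.

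Between the DSS-treated genotypes, 21 of the 22 members were higher in livers labelled RelaΔhepStat3Δhep, against 49.7% of all genes, and the median log2 difference was 0.47. Of the 22, 6 had an unadjusted p under 0.05, against 14.3%. It sets 3 livers with high Xist against 3 with low Xist: the 7 tested male-biased liver genes were all lower under the label and the 4 tested female-biased ones all higher. The 7 T and B cell markers (median 1.31), the 6 endothelial markers (0.46) and the 7 Kupffer cell and macrophage markers (0.41) also all had positive log2 fold changes. So did 4 of 6 stellate cell markers (0.13) and 4 of 8 hepatocyte markers (0.0012), while 3 of 4 neutrophil and monocyte markers were negative (-0.56). The part of these markers was not tested. With sex as a covariate, 18 of 22 members were positive and the median was 0.35. This comparison shares the 3 DSS-treated wild-type livers with the comparison within wild-type mice, so their directions are not independent. Without replicate 2 of that group, 17 of 22 were positive and the median was 0.21. The groups did not overlap for 7 members, all higher under the label (31.8%, against 8.8% of all genes): Gsta4, Gstt1, Sult1a1, Sult1d1, Sult3a1, Sult5a1 and Ugt2b34. In the interaction, which compares the DSS responses of the genotypes and holds the same DSS-treated wild-type livers, 19 of 22 members were positive against 48.7% of all genes. The 7 T and B cell (median 1.99), 7 Kupffer cell and macrophage (0.67) and 6 endothelial markers (0.62) were also all positive there. Of the 8 hepatocyte markers 6 were negative (-0.24). The 7 male-biased genes were all negative (-3.46) and the 4 female-biased ones all positive (8.13). Their part was not tested. The positive members were 15 of 22 with sex as a covariate, 17 without replicate 2 of the DSS-treated wild-type group and 16 without both libraries that stand apart. None passed the adjusted threshold (0.408% of all genes did), and 4 had an unadjusted p under 0.05, against 16.3%. The DESeq2 Wald test called Sult1a1 there (0.92, DESeq2 adjusted p = 0.0351) and 4.5% of all genes. With sex as a covariate edgeR called 0 members in the interaction and 0.0227% of all genes.

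The genes that supply, follow and regulate conjugation were taken as 8 lists with 92 tested genes. With DSS in wild-type livers edgeR called 0 of the 92, 13 had an unadjusted p under 0.05 and DESeq2 called 4, where the shares of all genes were 0.685%, 14.5% and 5.61%. In livers labelled RelaΔhepStat3Δhep edgeR called 14 and DESeq2 24, against 7.02% and 13.9% of all genes. All 14 kept their direction with sex as a covariate, but none passed the threshold there (lowest edgeR adjusted p 0.263). On the log2 scale some shrank there, such as Slc35d1 (-0.24), Nqo1 (0.53) and Slc27a5 (-0.44), and others grew, such as Ppara (-1.23) and Nr1h4 (-0.95). None of the 14 was called without replicate 2 of the untreated livers of that label, and 11 were called without both libraries that stand apart. Slc35d1, Abcc1 and Srxn1 were each called in 4 of 12 fits that leave out 1 library. With DSS in livers labelled RelaΔhepStat3Δhep, the UDP-glucuronic acid list (7 tested) had 1 higher and 1 lower call. The lower one was Slc35d1, which carries UDP-glucuronic acid into the endoplasmic reticulum, at 172 to 218 CPM untreated and 102 to 149 CPM after DSS (log2 fold change -0.71, SE 0.20, edgeR adjusted p = 0.0484). The 8 genes of PAPS supply and the 8 other glutathione transferases gave 0 calls, by edgeR or DESeq2, in the 5 comparisons, with at most 3 genes of either list at an unadjusted p under 0.05. Of 15 glutathione genes, Ggct, which breaks down gamma-glutamyl peptides, rose, at 3.81 to 5.22 CPM untreated and 9.34 to 10.7 CPM after DSS (log2 fold change 1.15, SE 0.22, edgeR adjusted p = 0.0117), and Oplah fell. Ggct was also called in the interaction (1.68, SE 0.31, edgeR adjusted p = 0.0431), a call lost in 10 of 12 fits that leave out 1 library, with the sex covariate (edgeR adjusted p = 0.602) and without both libraries that stand apart (edgeR adjusted p = 0.115). Of the 12 it held without replicate 2 of the untreated or replicate 1 of the DSS-treated wild-type group.

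Of 14 transporters of conjugates, the efflux pump Abcc1 rose and Abcg2 fell in livers labelled RelaΔhepStat3Δhep. Abcg2, which exports sulfate conjugates among others, was at 50.0 to 106 CPM untreated and at 28.0 to 35.1 after DSS (log2 fold change -1.30, SE 0.25, edgeR adjusted p = 0.0118). Among 20 regulators 4 fell and none rose. These were Nr1i3, the xenobiotic receptor CAR (-0.99, SE 0.19, edgeR adjusted p = 0.0116), Ppara (-0.93, SE 0.19, edgeR adjusted p = 0.0145), Hnf4a (-0.70, SE 0.18, edgeR adjusted p = 0.0325) and Nr1h4, the bile acid receptor FXR (-0.71, SE 0.19, edgeR adjusted p = 0.0400). Nr1i3 went from 127, 189 and 167 CPM to 68.6, 89.7 and 85.6. Of 12 Nfe2l2 target genes outside the members, 2 rose, namely Nqo1 (4.09 to 6.21 CPM untreated, 11.8 to 14.0 after DSS, log2 fold change 1.28, edgeR adjusted p = 0.0146) and Srxn1. As with the members, these calls set 3 livers with high Xist against 3 with low Xist. All 7 tested male-biased liver genes were lower after DSS in the same comparison, 3 of them past the threshold.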

How the data were processed

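The processed data were a gene table of mouse liver RNA-seq from 12 libraries, 3 per group, with groups read from the sample labels. By the study's methods, rRNA-depleted total RNA was sequenced as paired-end reads, trimmed with fastp 0.23.2, aligned to mm9 with HISAT2 2.2.1 and counted per gene with StringTie 2.2.1. The authors deposited estimated counts as whole numbers, before normalization. Their annotation file and the strand setting are not given in the sources used here. Gene symbols and locations came from GENCODE vM1, which names 28677 of 51609 rows, and 23458 rows held 0 in all libraries.

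Counts were fitted in R 4.3.3 with edgeR 4.0.16 (filterByExpr, 17652 genes kept, TMM, robust quasi-likelihood F tests, 4 groups in 1 model, biological coefficient of variation 0.317). Benjamini-Hochberg adjustment ran over all tested genes, with a threshold of 0.05, in 5 comparisons: DSS against water separately for the wild-type and the labelled mice, the genotypes separately on water and on DSS, and the interaction of both. Standard errors were derived from the fold change and its F statistic. No threshold was applied to fold size. The totals of 65879529 to 82850098 counts per library exceed the fragment number that the study's methods state, so 1 estimated count may not stand for 1 fragment and no counting error was derived from them. The edgeR p-values of the main fit rest on the spread between the 3 livers within each group. That spread is 1 estimate per gene shared by the 4 groups and moderated across genes. A library outside a comparison can therefore change its p-value. The replicates are taken as separate mice, as the labels number them.

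The alternatives were the DESeq2 1.42.0 Wald test, limma-voom (limma 3.58.1) with sample quality weights, DESeq2 size factors, keeping all genes, a minimum of 10 counts per library, a fit of the compared groups alone, a term for the replicate number (block), a term for sex (Xist above 100 CPM) and leaving out each library. Leaving out both libraries that stand apart was added after the data were seen. The members and the gene lists were chosen with earlier results of these data known. Genes were named when they passed the threshold in a comparison, were among the 3 highest per length of a family, or had the largest fold of a family, and beyond these by whether their groups overlapped, chosen after their values were seen. No library was a duplicate of another in its group. The fit was also run on simulated counts, and no value given here comes from that run.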

Additional observations from a re-analysis of the deposited data

Results flagged for a closer look

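Gstm4 and Sult3a1 lay on opposite sides of the untreated mean in the DSS-treated livers of the 2 genotypes. Each of the 3 DSS-treated wild-type livers was below the untreated wild-type mean, and each of the 3 DSS-treated livers of that label was above its untreated mean. For Gstm4 the difference between the responses was 0.78 on the log2 scale (SE 0.32, edgeR adjusted p = 0.256), and without both libraries that stand apart it was 0.53. For Sult3a1 it was 15.00 (SE 4.55, edgeR adjusted p = 0.183), and with sex as a covariate it was -1.94. The untreated wild-type mean of Sult3a1 rests on replicate 3 (2060 CPM, against 6.10 and 0.615), and without that library the wild-type response was 1.61, so its direction there is not kept. Neither interaction passed the threshold. In replicate 1 of the DSS-treated wild-type group the log2 ratio of Gstm4 to the untreated mean was only -0.097. The same-direction pattern itself was not tested, and the share of all genes that show it is not given here.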

How the results depend on the processing

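For the 37 pairs of a member and a comparison followed in full, 718 values under the alternatives kept their direction and their side of the threshold, 24 passed it only under the alternative, 11 no longer passed it and 11 changed sign. Of the counts of called members, 83 were within 1.5 times the reported one and 21 were not. DESeq2 called 3 members for DSS in wild-type, 2 for DSS in livers labelled RelaΔhepStat3Δhep, 2 between the DSS-treated genotypes and 1 in the interaction, where edgeR called 0, 0, 1 and 0. For DSS under that label limma-voom called 2 (10.2% of all genes), the fit of only the groups compared 4 (10.2%) and the fit without both libraries that stand apart 5 (9.56%), and leaving out 1 library gave 0 to 4, the highest without replicate 2 of the DSS-treated wild-type group (9.5%). Between the DSS-treated genotypes the fit of only the groups compared called 0 (0.252% of all genes), as did the sex covariate (0.0283%). Leaving out 1 library gave 0 to 2 there, the highest without replicate 1 of the DSS-treated wild-type group (2.14%).

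Over all tested members and comparisons, 90 of 2271 values under the alternatives had the other sign, 62 of them for values under 0.3 in size on the log2 scale. The sign for DSS in wild-type changed for 5 of the 22 members without both libraries that stand apart, which were Gstt1 (0.017), Gstt2 (0.012), Sult1a1 (0.013), Sult3a1 (2.196) and Sult5a1 (0.0031), and for Gstm7 (0.026) and Sult5a1 (0.10) without replicate 2 of the DSS-treated group. Without both libraries it also changed for Sult3a1 between the untreated genotypes (0.68). Between the DSS-treated genotypes Gstk1, Gstm4, Gstt2 and Ugt2b36 turned negative without replicate 2 of the wild-type group (-0.14 to -0.011). With the sex covariate Sult3a1 became -0.33 for DSS under the label, 1.61 for DSS in wild-type, -1.30 between the DSS-treated and 0.63 between the untreated genotypes, and -1.94 in the interaction. Leaving out 1 library gave Sult3a1 -6.65 to 1.61 for DSS in wild-type and -11.37 to 0.63 between the untreated genotypes, positive only without replicate 3 of the untreated wild-type group. The cause was not tested.

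Over all genes, edgeR called 121, 1240, 11, 59 and 72 for DSS in wild-type, DSS under the label, genotype untreated, genotype after DSS and the interaction, DESeq2 called 840, 2307, 334, 585 and 698, and the sex covariate left 50, 4, 2, 5 and 4. Replicate numbers did not pair the livers, since the deviations of same-numbered livers correlated at -0.089 to 0.168. With the replicate block the called members were 0, 0, 0, 1 and 0, as without it, and Sult1a1 had a log2 fold change of 1.17 between the DSS-treated genotypes (edgeR adjusted p = 0.0355), while all genes gave 119, 1164, 33, 66 and 128 calls. Low counts limit Gsto2, Sult1e1 and the 3 members that were not tested.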

Other observations

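Among 12 tested conjugation enzymes of other kinds, Inmt, a methyltransferase of indoles and other amines, was lower after DSS in both genotypes without overlap. It was at 649, 671 and 627 CPM in untreated and at 168, 22.1 and 192 in DSS-treated wild-type livers (log2 fold change -2.35, SE 0.60, edgeR adjusted p = 0.102). In livers labelled RelaΔhepStat3Δhep it was at 1036, 933 and 734 CPM untreated and at 297, 161 and 188 after DSS (log2 fold change -2.07, SE 0.59, edgeR adjusted p = 0.0610). Neither value passed the threshold by edgeR. By the DESeq2 Wald test 1 gene of this list was called for DSS in wild-type livers and 4 were called under the label. Inmt was singled out after its values were seen. The 2 genes of this list that edgeR called with DSS in livers labelled RelaΔhepStat3Δhep were the histamine methyltransferase Hnmt and the bile acid ligase Slc27a5. Hnmt was at 20.5 to 34.1 CPM untreated and 7.34 to 15.4 CPM after DSS (log2 fold change -1.46, SE 0.30, edgeR adjusted p = 0.0157). Slc27a5 fell by 0.73 on the log2 scale (SE 0.20, edgeR adjusted p = 0.0487), a call that held in 1 of 12 fits that leave out 1 library.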
